A study of Mus musculus with 4 samples.

Results

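The cells described here are blood progenitors of mouse bone marrow in which an unusually large part of the messenger RNA encodes the proteins of primary granules. They are called granule-rich cells below. They were chosen by measured values: transcripts of Mpo, Elane, Prtn3 and Ctsg had to make up at least 0.4% of a cell's unique molecular identifiers (UMIs, each standing for 1 captured RNA molecule), with fewer than 3 UMIs of Dntt, a lymphoid gene, and fewer than 3 of Pf4, a megakaryocyte gene. Of the 10351 cells that passed quality limits in the 2 libraries of sorted progenitors, 506 met this rule, and the 4 libraries of the series held 12355 cell barcodes in all. The granule-rich cells are a range cut from a continuous score and not a cluster, so their levels of the 4 granule genes describe the choice.

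The study asked about STAT5, a pair of transcription factors that act downstream of cytokine receptors, in blood progenitors and the stroma around them. Lineage-depleted bone marrow cells were sorted as c-Kit-positive and Sca-1-positive (KLS cells) and profiled with droplet single-cell RNA sequencing. The KLS STAT5 KO library came from Vav1-Cre/+STAT5abfl/fl mice and the KLS control library from Vav1-Cre/+STAT5ab+/+ mice, so both carried Cre under the Vav1 promoter, which drives it in cells of the blood lineage. The labels give 4 mice of 8 to 12 weeks for the KLS sort without saying whether this number is per genotype. Cells of the mice were pooled, and there was 1 library per genotype. A difference between the libraries therefore has no replicate check, no test was made, and every interval printed is a 95% interval for counting error only.

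Neutrophil and monocyte precursors fill their first granules with serine proteases and myeloperoxidase while they are still dividing. These proteins are made at high rate through the endoplasmic reticulum, and they appear before the secondary granule proteins of later neutrophil stages. Mpo encodes myeloperoxidase, a heme enzyme that makes hypochlorous acid, while Elane, Prtn3 and Ctsg encode neutrophil elastase, proteinase 3 and cathepsin G.

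The DNA just before the RefSeq starts of the 4 genes is shown because the summed transcripts of these genes define the cells. A cell could meet the rule without all 4, and 20 control and 265 STAT5 KO granule-rich cells held no Elane UMI. Each line runs 5′ to 3′ on the gene's own strand, from RefSeq promoters of GRCm38.p6. It stops at the first base that GENCODE M21 counts as an exon of the gene. Only 47 bases are therefore printed for Mpo, 185 for Elane and 197 for Prtn3, and these lines end short of the RefSeq start. For Prtn3 GENCODE also has an earlier start, so this stretch lies in an intron of that model. Capitals mark GAGGAA on either strand, the letters of a frequent site of the ETS factor PU.1. The stretches are chr11:87793534-87793580 on the plus strand for Mpo, chr10:79886062-79886246 on the plus strand for Elane, chr10:79879417-79879613 on the plus strand for Prtn3 and chr14:56102575-56102824 on the minus strand for Ctsg.
Mpo: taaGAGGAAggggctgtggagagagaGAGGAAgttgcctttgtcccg
Elane: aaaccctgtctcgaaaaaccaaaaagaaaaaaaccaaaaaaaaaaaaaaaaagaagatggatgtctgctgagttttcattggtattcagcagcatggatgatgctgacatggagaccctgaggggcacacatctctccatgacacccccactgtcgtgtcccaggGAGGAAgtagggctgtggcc
Prtn3: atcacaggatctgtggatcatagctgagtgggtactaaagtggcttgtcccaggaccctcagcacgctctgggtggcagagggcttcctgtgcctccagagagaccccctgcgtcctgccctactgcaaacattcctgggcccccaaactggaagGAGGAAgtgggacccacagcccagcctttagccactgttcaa
Ctsg: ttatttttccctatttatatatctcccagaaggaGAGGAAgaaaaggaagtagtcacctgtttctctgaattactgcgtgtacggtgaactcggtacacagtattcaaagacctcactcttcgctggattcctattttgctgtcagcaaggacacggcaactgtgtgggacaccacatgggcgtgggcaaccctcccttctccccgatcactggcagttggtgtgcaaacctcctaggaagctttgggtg

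Motif letters were searched on both strands in the 250 bases before each RefSeq start, and the same was done for 32851 RefSeq promoters. GAGGAA was present before all 4 genes, with 2 matches before Mpo and 1 before each of the others, and before 23.3% of all promoters. In Elane and Prtn3, which are neighbours on chromosome 10, its first base lay 85 and 95 bases before the start. CAACNG, for MYB, was present before Elane, Prtn3 and Ctsg and before 29.3% of all promoters. TGTGGT, for RUNX factors, was present before Ctsg alone among the 4 and before 14% of all. TTCNNNGAA, the STAT motif, was also present before Ctsg alone among the 4 and before 7.02% of all. TTNNGNAA, for C/EBP factors, was in none of the 4 windows and in 36.8% of all promoters. No match in these windows overlapped a match to another of the motifs, and a match is only a run of letters.

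The libraries were checked before the cells were compared. The KLS control library held 55138419 UMIs and the KLS STAT5 KO library 82466835. The median depth of granule-rich cells was 25604 UMIs in control and 15138 in STAT5 KO, against 15236 and 9814 in the other KLS cells. Mitochondrial transcripts made up a median of 4.36% and 2.85% of the UMIs of granule-rich cells, a gap between libraries that the other KLS cells shared at 4.44% and 2.92%. No granule-rich cell carried a barcode present in the other KLS library, and 1 barcode per library met the expression rule but was left out because it also occurred in a stromal library. Both libraries held cells of female and male mice. Cells with a Xist UMI made up 69.4% of control and 42.3% of STAT5 KO granule-rich cells, against 45.7% and 45.0% of the other KLS cells, and the part of this mix in the differences below was not tested.

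The deleted genes were checked next, since they test the labels. Stat5a (ENSMUSG00000004043, chromosome 11, 100859351 to 100885169, plus strand) and Stat5b (ENSMUSG00000020919, chromosome 11, 100780731 to 100850724, minus strand) gave 163 UMIs in the 62 control cells and 37 UMIs in the 444 STAT5 KO cells. The STAT5 KO level was 5.30% of control (3.61 to 7.62%). In the other KLS cells it was 9.16% of control (8.53 to 9.82%).

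Granule-rich cells made up a larger part of the KLS sort in the STAT5 KO library. In control 62 of 3193 cells met the rule, or 1.94% (1.49 to 2.48%). In STAT5 KO 444 of 7158 did, or 6.203% (5.66 to 6.79%). The difference was 4.26 percentage points (3.49 to 4.998), or 3.19-fold. When every cell was first thinned to 4000 UMIs, leaving out 21 and 311 shallower cells, the shares were 2.33% (1.84 to 2.92%) and 7.62% (7.01 to 8.28%). The limits on Dntt and Pf4 had removed 5 control and 74 STAT5 KO cells, nearly all for Dntt.

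The whole distribution of the granule share lay higher in STAT5 KO over its lower range. The median granule share of the other KLS cells was 0.0535% of UMIs in control and 0.0960% in STAT5 KO, and 72.8% of control cells but 48.5% of STAT5 KO cells lay under 0.1%. Among granule-rich cells the median was higher in control, at 0.656% against 0.573% in STAT5 KO, and so was the upper quartile, at 1.34% against 0.788%. The highest single cell was in STAT5 KO, at 4.99% against 4.22%. Many cells lay near the limit. The lowest granule-rich cell had 0.4045% in control and 0.4004% in STAT5 KO, the highest cell left out had 0.39562% and 0.39997%, and the range from 0.3 to 0.4% held 49 and 274 cells. Of the granule-rich cells, 17 in control (27.4%) and 153 in STAT5 KO (34.5%) lay between 0.4 and 0.5%.

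The difference in the share of KLS cells was larger in percentage points at lower granule shares. In control 1.35% (0.976 to 1.81%) of KLS cells had 0.4 to 1%, and in STAT5 KO 5.18% (4.68 to 5.72%) did, a difference of 3.84 points (3.15 to 4.49). Cells with 1 to 3% made up 0.564% (0.334 to 0.890%) and 0.964% (0.751 to 1.22%), a difference of 0.40 points (0.011 to 0.743). Only 1 control cell and 4 STAT5 KO cells reached 3%. With the limit set at 0.8% in place of 0.4%, the difference between the libraries was 0.77 percentage points, and with the limit at 1% it was 0.42. Further up the order changed. Without the limits on Dntt and Pf4, 0.4698% of control and 0.4471% of STAT5 KO cells had a granule share of 1.413% or more. At 1.938% or more the shares were 0.1879% and 0.2375%. At 2.153% or more they were 0.1879% and 0.1397%, and at 2.953% or more 0.03132% and 0.05588%. Neither library therefore led over the whole upper range.

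**Figure D1:**
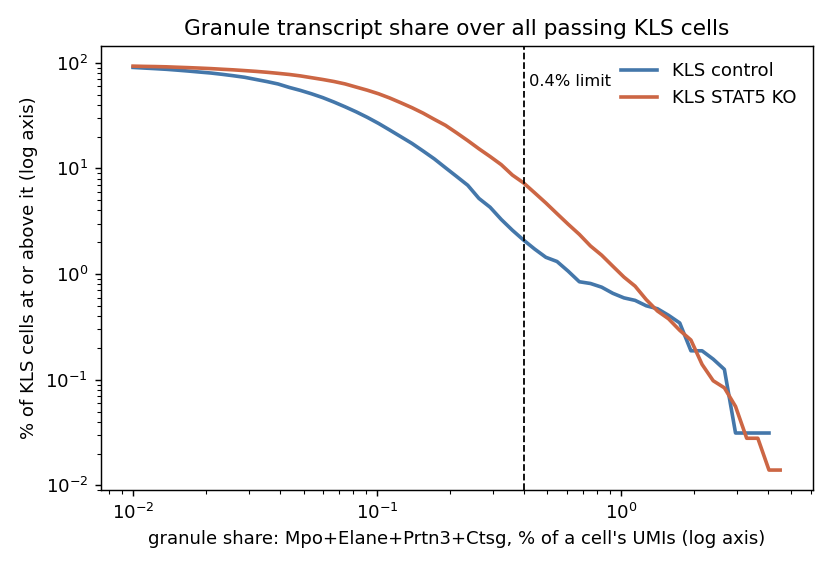
Percentage of passing KLS cells (y axis, log scale) whose granule share, the part of UMIs from Mpo, Elane, Prtn3 and Ctsg, is at or above the value on the x axis (log scale), for KLS control (blue, 3193 cells) and KLS STAT5 KO (orange, 7158 cells). At the dashed 0.4% limit, before the limits on Dntt and Pf4, 2.10% of control and 7.24% of STAT5 KO cells remain, and at 1% and above the shares are 0.595% and 1.02%.

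The 4 granule genes did not contribute alike in the 2 libraries. Counting of 3′ ends gives a transcript its UMIs whatever its length, so levels of different genes are compared per molecule. Mpo (ENSMUSG00000009350, chromosome 11, 87793581 to 87804413, plus strand) stood at 4603 counts per 1000000 UMIs (CPM) in granule-rich control cells and 4099 in STAT5 KO. Prtn3 (ENSMUSG00000057729, chromosome 10, 79874476 to 79883174, plus strand) stood at 2540 and 1916 CPM, and Ctsg (ENSMUSG00000040314, chromosome 14, 56099881 to 56102574, minus strand) at 1878 and 1314 CPM. Elane (ENSMUSG00000020125, chromosome 10, 79886247 to 79888215, plus strand) was the gene that stood apart, at 1301 CPM in control against 445 in STAT5 KO. Elane gave 12.6% (12.1 to 13.1%) of the 4 genes' UMIs in control and 5.72% (5.53 to 5.92%) in STAT5 KO, while Mpo gave 44.6% and 52.7%. In the other KLS cells the order was the reverse, with Mpo at 423.3 CPM in control and 770.2 in STAT5 KO and Elane at 2.01 and 5.55.

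Elane divided the granule-rich cells into those with many copies and those with few or none. In control 19 of 62 cells (30.6%) held 10 or more Elane UMIs, and in STAT5 KO 43 of 444 (9.69%). After thinning to 4000 UMIs, which 62 control and 426 STAT5 KO cells reached, 38.7% (26.6 to 51.9%) and 25.1% (21.1 to 29.5%) still held an Elane UMI. The same share was 0.772% and 0.950% in the other KLS cells and 0.769% and 0.893% in cells with 3 or more Pf4 UMIs, which should lack the gene. Unthinned, 67.7% and 40.3% of granule-rich cells held an Elane UMI.

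As a part of all KLS cells, those with 10 or more Elane UMIs differed by 0.030 percentage points (-0.351 to 0.355) between the libraries. There were 20 in control, 0.626% (0.383 to 0.966%), with a median depth of 24984 UMIs, and 47 in STAT5 KO, 0.657% (0.483 to 0.872%), with a median of 23328. Thinned to 4000 UMIs, cells with 3 or more Elane UMIs were 0.599% (0.361 to 0.934%) and 0.730% (0.542 to 0.962%). Granule-rich cells with fewer than 10 Elane UMIs were 1.35% (0.976 to 1.81%) of the control library and 5.60% (5.08 to 6.16%) of the STAT5 KO library. Elane is part of the rule, and this division at 10 UMIs was chosen after its values were seen, so these shares are a description.

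**Figure D2:**
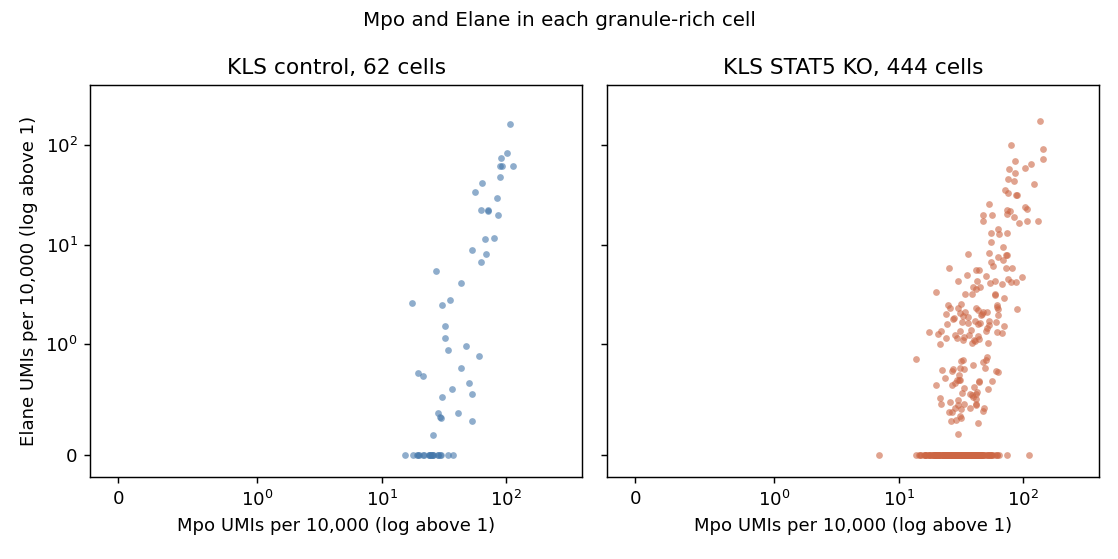
Mpo (x axis) and Elane (y axis) UMIs per 10000 UMIs in every granule-rich cell, on axes that are linear below 1 and logarithmic above, with 62 KLS control cells on the left and 444 KLS STAT5 KO cells on the right. Cells with more Mpo hold more Elane in both panels, and the row of cells at 0 Elane holds 20 control and 265 STAT5 KO cells.

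**Figure D3:**
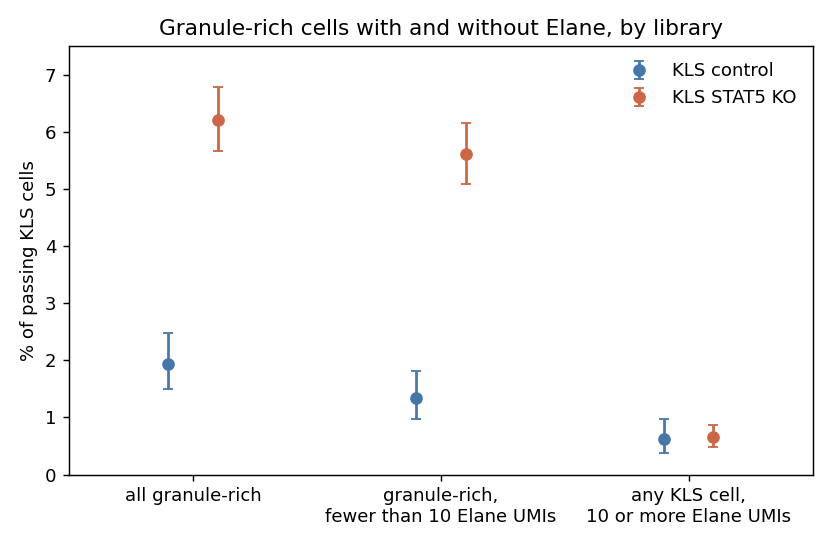
Percentage of passing KLS cells (y axis) that were granule-rich, that were granule-rich with fewer than 10 Elane UMIs, and that held 10 or more Elane UMIs whatever their granule share, in KLS control (blue) and KLS STAT5 KO (orange), with 95% Clopper-Pearson intervals. The first pair of groups stands at 1.94% and 6.203%, and the last at 0.626% and 0.657%.

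Beside the other KLS cells, granule-rich cells showed a myeloid profile in both libraries. Of 12152 genes with at least 100 UMIs, 38 (0.313%) were at least 2-fold higher in granule-rich cells in each library, and 59 (0.486%) were at least 2-fold lower, on the scale of log2 of CPM plus 10. The highest were Prss34, F13a1, Mcpt8, Ms4a3, Hp, Ly6c2, Rab44, Anxa3, Ap3s1 and Ms4a6c. Ms4a3, a membrane protein gene of granulocyte and monocyte precursors, was at 210.5 CPM in granule-rich and 6.46 CPM in other control cells, and at 103.0 and 10.7 CPM in STAT5 KO. Ap3s1, a subunit of the AP-3 complex that sorts proteins to granules, had log2 ratios to the other KLS cells of 2.72 in control and 1.86 in STAT5 KO.

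Among lists of genes chosen by function, the primary granule list beyond the 4 rule genes had 4 of 15 measured genes past 2-fold higher in both libraries and none lower. These were Ms4a3, Rab44, Cst7, which encodes the protease inhibitor cystatin F, and Cpa3. Cpa3 also belongs to the list of eosinophil, basophil and mast cell markers, so it is not particular to primary granules. The 3 granule-rich control cells with most Cpa3 held 53.5% of its control UMIs, and the 3 in STAT5 KO 24.8%. Of 18 myeloid transcription factor genes, Cebpa, Cebpe and Irf8 passed and none was lower. Cebpa, which starts the granulocyte-monocyte programme, was at 149.1 CPM in granule-rich and 35.2 CPM in other control cells, and at 96.3 and 34.9 CPM in STAT5 KO. Spi1, which encodes PU.1, was short of 2-fold, with log2 ratios of 0.57 and 0.48. Among 19 receptor genes Csf1r, Ccr2 and Clec12a passed, while Csf3r, the receptor of granulocyte colony-stimulating factor, had log2 ratios of 0.03 and 0.18.

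Of 21 genes for protein folding in the endoplasmic reticulum, Calr and Sdf2l1 passed 2-fold higher in both libraries and none passed lower. The list's median log2 ratio to the other KLS cells was 0.94 in control and 0.52 in STAT5 KO, beside -0.12 and -0.08 over all genes. Calr, the chaperone calreticulin, was at 2148 CPM in granule-rich and 615.6 CPM in other control cells, and at 1806 and 769.5 CPM in STAT5 KO. Alas1, the first enzyme of heme synthesis, was the only one of 8 heme genes to pass, with log2 ratios of 1.68 and 1.18.

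Some genes of other fates were lower, and most members of each such list did not pass. Of 20 stem cell genes 7 passed 2-fold lower in both libraries, among them Hlf, Mecom, Meis1, Esam and Tgm2, and the list's median was -1.08 in control and -0.89 in STAT5 KO. Hlf was at 87.1 CPM in granule-rich and 268.4 CPM in other control cells, and at 59.99 and 173.3 CPM in STAT5 KO. The erythroid list had 5 of 17 genes past 2-fold lower, among them Car1 and Car2, which encode carbonic anhydrases, and its medians were -1.01 and -0.84. Car1 was at 0.627 and 1.32 CPM in granule-rich cells against 88.9 and 94.4 CPM in the others. This low level was not particular to granule-rich cells. Car1 was at 0 and 1.40 CPM in cells with a granule share of 0.3 to 0.4%. It was at 1.79 and 2.20 CPM in cells with 3 or more Pf4 UMIs, and at 22.5 and 12.3 CPM in cells with 3 or more Dntt UMIs. The lymphoid list had 1 of 17 genes past 2-fold lower, Il12a, with medians of -0.55 and -0.52. The megakaryocyte list had 2 of 12 past 2-fold lower, with medians of -0.76 and -0.86. The lymphoid and megakaryocyte results partly describe the choice of cells. The rule kept cells with 3 or more Dntt or Pf4 UMIs out, and these stayed among the other KLS cells. There were 1045 such Dntt cells in control and 2413 in STAT5 KO, and 130 and 228 Pf4 cells. No gene of these 4 lists passed higher. None of 20 S phase and 22 G2 and M phase genes passed in either direction.

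Later granule proteins were nearly missing. Of 17 secondary and tertiary granule genes, 7 had no UMI in any granule-rich cell, among them Ltf, which encodes lactoferrin, and Mmp9. Hp, haptoglobin, was the only one past 2-fold higher, at 67.7 CPM in control against 42.4 in STAT5 KO against 0.266 and 0.798 CPM in the other KLS cells. Ly6g, a surface marker of mature neutrophils, was at 0 UMIs in both libraries. A pooled count of 0 allows up to 3 UMIs.

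The contrast between granule-rich and other KLS cells was steeper in control. Of the 38 genes higher in granule-rich cells, 37 had the larger ratio in control, Ccr2 being the exception at 1.77 in control and 2.10 in STAT5 KO. Granule-rich control cells also had the higher median granule share, and its part in the contrast was not tested.

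**Figure D4:**
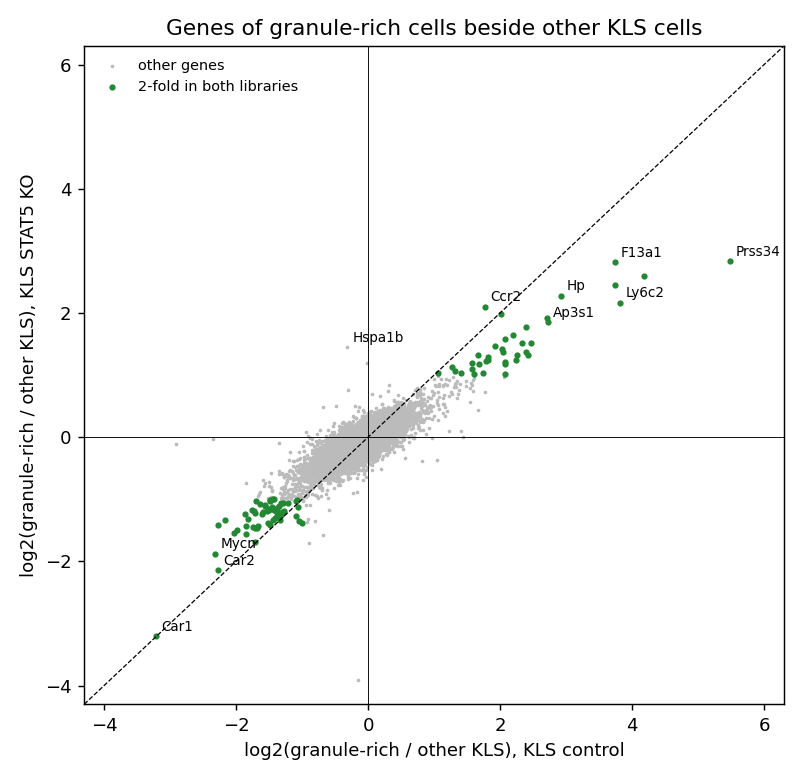
Log2 ratio of granule-rich to other KLS cells for 12152 genes without the 6 genes of the rule (pseudocount 10 CPM), in KLS control (x axis) and KLS STAT5 KO (y axis), with genes past 2-fold the same way in both libraries in green. Most green genes on the right, such as Prss34 and Ly6c2, lie below the dashed line of equal ratios, while Hspa1b is above 0 in STAT5 KO and below 0 in control.

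Some granule-rich cells held several UMIs from small sets of genes of later cells. At least 3 UMIs of the monocyte genes Csf1r, F13a1, Ccr2 and Ly86 were held by 24 control cells (38.7%) and 99 STAT5 KO cells (22.3%). At least 3 UMIs of the neutrophil genes Cebpe, Hp and Fcnb were held by 16 control cells (25.8%) and 44 STAT5 KO cells (9.91%). At least 3 UMIs of the basophil genes Mcpt8, Prss34 and Ms4a2 were held by 13 control cells (20.97%) and 53 STAT5 KO cells (11.9%). None of these was held by 22 control cells (35.5%) and 288 STAT5 KO cells (64.9%), at median depths of 25854 and 13178 UMIs. The sets shared many cells. Of the monocyte gene cells 11 in control and 33 in STAT5 KO also held another set. The same was true of 10 and 31 of the neutrophil gene cells, and of 4 and 14 of the basophil gene cells.

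Thinned to 4000 UMIs and counted from 1 UMI on, which changes both the depth and the minimum, cells with any monocyte gene UMI were 33.9% of granule-rich cells in control (22.3 to 47.0%) and 25.6% in STAT5 KO (21.5 to 30.0%), against 3.79% and 3.36% of the other KLS cells. For the neutrophil genes the shares were 20.97% (11.7 to 33.2%) and 13.8% (10.7 to 17.5%), against 0.225% and 0.467%. For the basophil genes they were 20.97% (11.7 to 33.2%) and 18.5% (14.97 to 22.6%), against 1.86% and 3.44%. STAT5 KO minus control, these are -8.28 points (-22.04 to 4.07), -7.12 points (-19.7 to 2.88) and -2.42 points (-15.2 to 7.71). With the minimum kept at 3 UMIs in the thinned cells, the monocyte genes were held by 19.4% and 6.81%, a difference of -12.55 points (-24.8 to -3.18). For the neutrophil genes it was -4.34 points (-13.7 to 0.684) and for the basophil genes -6.39 points (-16.7 to 0.028). All genes of these sets but Fcnb and Ms4a2 were among those past 2-fold higher in granule-rich cells. The contrast with the other KLS cells therefore repeats that result.

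Next, STAT5 KO and control were set side by side within the granule-rich cells. Of 7662 genes with at least 100 UMIs, 137 (1.79%) were higher in STAT5 KO and 91 (1.19%) lower, taking genes past 1.5-fold (log2 of CPM plus 10) whose counting interval excluded equality. The minimum was summed over both libraries, and granule-rich cells gave 6833978 UMIs in STAT5 KO but 1596250 in control. Genes with few control UMIs could therefore reach it more easily than genes with few STAT5 KO UMIs. With a minimum of 20 UMIs, 157 of 10297 genes were higher and 135 lower. With edgeR's TMM scaling in place of totals the split was 113 higher and 120 lower. The median log2 ratio over all 7662 genes was 0.07. Of the 137 higher genes 20 (14.6%) were also past 1.5-fold higher in the other KLS cells. Of the 91 lower genes 15 (16.5%) were past 1.5-fold lower there. The share of all genes past 1.5-fold in those cells was not counted, so these overlaps have no background. The median log2 ratio in the other KLS cells was 0.22 for the higher genes and -0.25 for the lower, beside 0.03 over all genes.

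Of the 38 genes higher in granule-rich than in other KLS cells, 19 were among the lower genes and 1, the chemokine gene Ccl9, among the higher, with a median log2 ratio of -0.60. In the other KLS cells the median of the same 38 genes was 0.05. Within cells of a granule share of 0.4 to 1% the median was -0.46, and within cells of 1 to 3% it was -0.23.

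Monocyte and dendritic genes had the lowest median of the lists with at least 10 genes measured, -0.73 over 16 genes, with 10 lower in STAT5 KO and 1 higher. Weighted to the granule share bands of the control cells, 8 of the 10 kept the call, and at the 0.8% limit 3 did. The weighting changed the ratios only, and the intervals stayed those of the unweighted counts. The 10 were Csf1r, Ly86, F13a1, Irf8, Ms4a6c, Ctss, Ly6c2, Tyrobp, Fcer1g and Mpeg1. Ly6c2 (chromosome 15, 75108158 to 75111970, minus strand), which encodes a surface protein of monocytes and their precursors, was at 144.7 CPM in control against 36.7 in STAT5 KO, 3.94-fold lower, with a log2 ratio of -1.73. The 3 control cells with most Ly6c2 held 44.2% of its control UMIs, and some of its reads may be those of the close copy Ly6c1. Irf8, a transcription factor of monocyte and dendritic cell fate, was at 274.4 CPM in control against 151.2 in STAT5 KO. Tyrobp and Fcer1g, adaptors that pass signals from Fc and related receptors, had log2 ratios of -1.004 and -1.12.

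These differences were uneven along the granule share. In cells of 0.4 to 1% F13a1, coagulation factor XIII A of monocytes, was at 124.3 CPM in control against 56.1 in STAT5 KO, but in cells of 1 to 3% it was at 219.7 and 247.6 CPM. Irf8 was at 283.0 and 140.3 CPM in the lower range and at 268.1 and 214.6 CPM in the range of 1 to 3%. Ly6c2 was at 23.2 and 13.03 CPM in the lower range and at 370.9 and 132.1 CPM in the range of 1 to 3%. Tyrobp was lower in STAT5 KO in both ranges, with log2 ratios of -0.94 and -0.85.

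Among cells with 10 or more Elane UMIs, where 19 control and 43 STAT5 KO cells could be compared, several of these gaps were small or turned. Irf8 was at 218.1 CPM in control against 184.1 in STAT5 KO, a log2 ratio of -0.23 whose interval included 0. F13a1 was at 180.1 and 269.2 CPM, higher in STAT5 KO. Csf1r, the receptor of macrophage colony-stimulating factor, was at 38.0 and 43.1 CPM. Ly6c2, at 406.2 and 216.4 CPM, and Tyrobp, at 342.1 and 193.8 CPM, kept log2 ratios of -0.88 and -0.79. In cells with fewer than 10 Elane UMIs the ratios of Irf8, F13a1, Csf1r and Tyrobp were between -1.12 and -0.88.

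Granule proteins outside the rule, transcription factors and receptors were closer to equal. The primary granule list had 2 of 15 genes lower, Ms4a3 at -0.96 and Cst7 at -0.67, none higher, and a median of -0.26. Neither kept its call when weighted to the control bands or at the 0.2% limit. Rab44, a GTPase tied to granule release in mast cells, stood at 115.3 CPM in control against 127.2 in STAT5 KO. Of 14 transcription factor genes measured, Irf8 and Cebpe were lower and none was higher. Both kept their calls when weighted to the control bands, and neither did in cells with 10 or more Elane UMIs. Cebpe lost its call at the 0.2% limit and Irf8 at the 0.8% limit. Cebpe, which drives the step to secondary granules, rested on 56 control and 76 STAT5 KO UMIs, 35.1 and 11.1 CPM. It was at 108 and 70 CPM in cells with 10 or more Elane UMIs, and at 1.82 and 1.86 CPM in those with fewer. Cebpa had a log2 ratio of -0.58, just short of 1.5-fold, and Spi1 one of -0.14. Of 16 receptor genes, Csf1r, Ifngr1, Clec12a and Fcgr3 were lower and none was higher, and Csf3r stood at 45.1 and 64.1 CPM. Csf1r and Ifngr1 lost their calls when weighted to the control bands, and none of the 4 kept it in cells with 10 or more Elane UMIs. Of the heme genes Alas1 was the one past 1.5-fold, at 120.9 CPM in control against 75.5 in STAT5 KO. It kept its call in 10 of 17 alternatives. Among those where it did not were weighting to the control bands, cells chosen after thinning and the limits of 0.2% and 0.8%.

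Of the 21 endoplasmic reticulum folding genes 1 passed in granule-rich cells, the chaperone gene Creld2 at 105.2 CPM in control against 54.3 in STAT5 KO. The list's median was -0.28, with 20 of 21 ratios below 0. It was -0.07 in cells of a granule share of 0.4 to 1%, -0.34 in cells of 1 to 3% and 0.20 in the other KLS cells.

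Of 16 heat shock and immediate early genes measured, 7 were higher in STAT5 KO and none lower: Hspa1a, Hspa1b, Hsph1, Dnajb1, Hsp90aa1, Fos and Jun. The immediate early genes Fosb, Junb, Dusp1 and Ier2 did not pass, with log2 ratios of 0.47, 0.14, 0.11 and -0.15. The list had a median of 0.50 in granule-rich cells and 0.17 in the other KLS cells. Hspa1b, an inducible chaperone of the HSP70 family, had 6 UMIs (3.76 CPM) in control and 512 UMIs (74.9 CPM) in STAT5 KO, and it was at 7.20 and 21.1 CPM in the other KLS cells. Hspa1a and Hspa1b are near-identical copies, so reads could be assigned to either. Genotype and preparation cannot be told apart here, since each genotype was 1 library.

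Targets and feedback genes of STAT5 had 3 of 8 measured members past 1.5-fold higher in granule-rich STAT5 KO cells, Ccnd1, Socs3 and Pim1, and none past 1.5-fold lower, with a median of 0.32. Ccnd1, cyclin D1 of the G1 phase, was at 12.5 CPM in control against 57.2 in STAT5 KO, 4.57-fold higher (2.92 to 7.56), and at 22.7 and 54.7 CPM in the other KLS cells. Pim1, a survival kinase, was at 147.8 and 278.8 CPM. All 3 kept their calls when weighted to the control bands. Ccnd1 and Socs3 lost theirs at the 0.8% limit and in cells with 10 or more Elane UMIs, and Pim1 at the 0.2% limit. Socs3, a feedback inhibitor of cytokine signalling, rested on 7 control UMIs, and Cish, a textbook STAT5 target, had 5 and 18 UMIs, too few to measure.

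Other genes among the 15 highest in STAT5 KO were Myl10, Selp, H2-Ab1, Gm42418, Slc16a11, Cenpv, Gm16152, Hist1h2ae and Cdkn1a. Selp, the P-selectin of platelets and megakaryocytes, was at 6.27 CPM in control against 27.5 in STAT5 KO. H2-Ab1, of the class II antigen presentation complex, was at 23.2 and 59.9 CPM. Cdkn1a, an inhibitor of cell cycle kinases, was at 25.7 and 58.2 CPM. Reads of Gm42418 cannot be told apart from those of an overlapping model. Of the stem cell list Ifitm1 was the 1 gene past 1.5-fold, at 322.6 CPM in control against 574.5 in STAT5 KO in granule-rich cells, and at 522.5 and 407.9 CPM in the others. Myl10 and Slc16a11 had only 2 and 3 control UMIs, and their ratios were 14.2-fold (3.86 to 119) and 7.63-fold (2.54 to 37.6). Both were at least 2-fold lower in granule-rich than in other KLS cells in each library.

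Among the 15 lowest in STAT5 KO, Gm47283 (placed on chromosome Y, 90784738 to 90816464) came first, at 682.2 CPM in control against 90.0 in STAT5 KO, with log2 ratios of -2.79 here and -2.77 in the other KLS cells. Stat5a followed it. Gm8797 and the interferon-inducible gene Ifi27l2a were also past 1.5-fold lower in the other KLS cells, at -1.12 and -0.84. Ifi209, Tifab, Fcgr3, Hdc and Igsf6 had log2 ratios between -1.21 and -1.01 in granule-rich cells and between -0.36 and -0.01 in the other KLS cells. Hdc makes histamine, and Fcgr3 encodes a receptor for IgG.

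**Figure D5:**
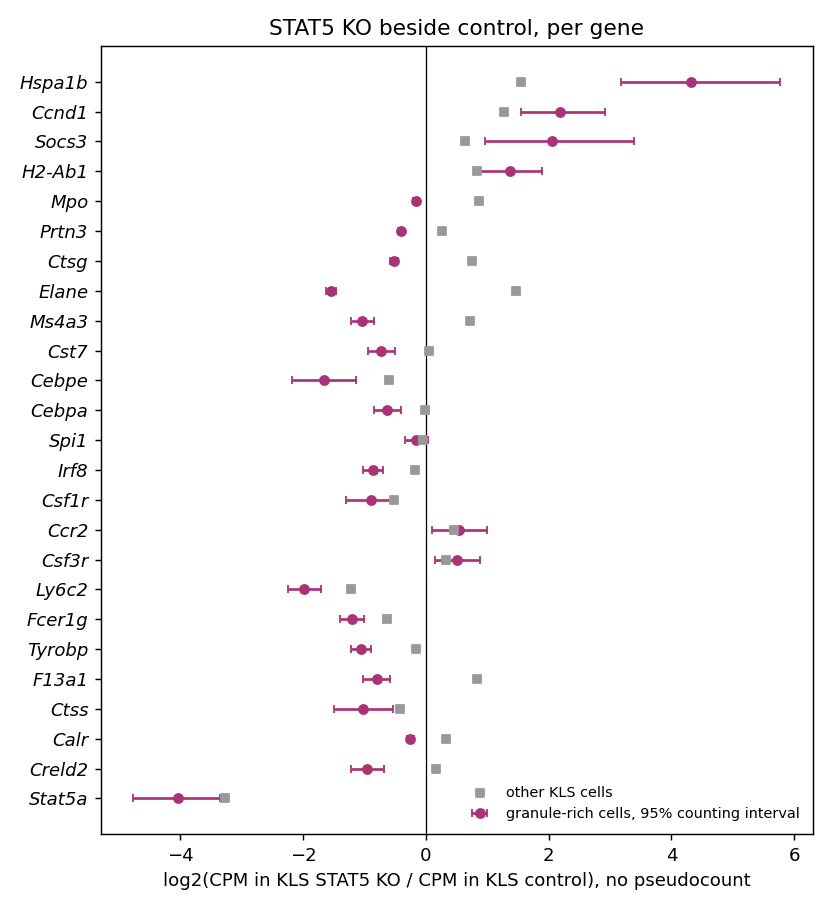
Log2 ratio of CPM in KLS STAT5 KO to KLS control (x axis, no pseudocount) for 25 genes: purple points with 95% counting intervals for granule-rich cells, grey squares without intervals for the other KLS cells. Elane, Ms4a3 and F13a1 lie below 0 in granule-rich cells and above 0 in the other KLS cells, while Hspa1b and Ccnd1 lie above 0 in both.

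The basophil genes rested on a handful of cells. Prss34 and Mcpt8 encode serine proteases of basophils, and Ms4a2 a chain of the IgE receptor. Prss34 was at 568.8 CPM in control against 168.9 in STAT5 KO, but 3 control cells held 97.8% of its control UMIs and 3 STAT5 KO cells 70.9% of its STAT5 KO UMIs. Only 5 control and 12 STAT5 KO cells held 10 or more UMIs of the 3 genes. Without them the log2 ratio of Prss34 was 0.04 instead of -1.69 and that of Mcpt8 was 0.35 instead of -0.79.

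None of 20 S phase or 22 G2 and M phase genes passed 1.5-fold, and the medians were 0.16 and 0.17 beside 0.07 over all genes. Kit, which encodes the sorting marker c-Kit, was at 145.3 and 129.2 CPM in granule-rich cells, and Ly6a, which encodes Sca-1, at 26.9 and 28.4 CPM. In the other KLS cells Ly6a was at 67.1 and 50.9 CPM.

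Markers of cells outside the sort were summed as lists. Of 13 stromal markers 10 had no UMI in granule-rich cells of either library, and the B, T and plasma cell list had 6 of 14 at 0, among them Cd79a, Ms4a1 and Cd3e. In granule-rich cells the stromal list summed to 468.6 CPM in control against 418.8 in STAT5 KO, and to 328.2 and 315.1 CPM in the other KLS cells, nearly all of it from Igfbp4. The B, T and plasma cell list summed to 137.2 and 107.7 CPM, against 115.3 and 118.7 CPM in the other KLS cells. The part of these genes in the results was not tested. Scrublet's highest doublet scores covered 1 control and 6 STAT5 KO granule-rich cells, 1.61% and 1.35%, beside 3.32% and 6.38% of the other KLS cells.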

How the data were processed

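Per the labels' protocols, 10x Chromium 3′ libraries were made from sorted cells; per the submitters' processing notes Cell Ranger was used with GRCm38 (mm10), with version 3.1.0 of the software per the file headers. Settings for strand and cell calling are not given in the sources used here. The deposited matrices hold raw UMI counts for 31053 genes per barcode, as the authors made them, with no normalization. No column of values lacked a sample (0).

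Cells needed at least 500 genes, at most 10% mitochondrial UMIs and a barcode absent from both stromal libraries. UMIs were summed over cells and scaled to CPM over all genes. No correction for free RNA was made. Ratios used a pseudocount of 10 CPM, with exact Poisson, Clopper-Pearson and conditional binomial 95% intervals, which cover counting error only. With 1 library per group no test was made and cells were not treated as replicates. PCR copies are collapsed by UMI.

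Named genes were the 15 highest and 15 lowest between genotypes among called genes detected in at least 5% of cells where the gene was higher, the 20 highest and 15 lowest beside other KLS cells, the rule genes, the Stat5 genes and list members. The ranking left out Xist, Uty, Kdm5d, Eif2s3y, Ddx3y and the genes of hemoglobins and immunoglobulins. Some genes that met the rule are not reported here. The cells and lists were chosen with earlier results of these data known. Coordinates are of GENCODE M21 (GRCm38), which held 30934 of the gene identifiers. Ratios and intervals were tested on simulated data. Alternatives covered thresholds, filters, depth, doublets (Scrublet in scanpy 1.11.5, whose automatic calls of 0 and 1 barcodes are too few to have worked, so the highest scores, 112 and 451 barcodes, were left out), scaling (edgeR 4.0.16) and pseudocounts. Python 3.11.15, numpy 2.4.6, scipy 1.17.1 and R 4.3.3 were used.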

Additional observations from a re-analysis of the deposited data

Results flagged for a closer look

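The basophil protease genes Prss34 and Mcpt8 were past 1.5-fold in opposite directions in granule-rich and other KLS cells. The log2 ratio of STAT5 KO to control was -1.69 for Prss34 and -0.79 for Mcpt8 in granule-rich cells, and 0.96 and 0.79 in the other KLS cells. Few cells carried these genes. The 3 granule-rich control cells with most of each gene held 97.8% of the Prss34 and 85.2% of the Mcpt8 control UMIs. Without cells that held 10 or more UMIs of the basophil genes, the ratios in granule-rich cells were 0.04 and 0.35. With 1 library per genotype the difference between the cell groups was not tested.

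The stromal libraries, which the comparisons above do not use, also held transcripts of the 4 granule genes. They stood at 80.0 CPM in the control stromal library and at 1059.2 CPM in the STAT5 KO one. In STAT5 KO 1 of 425 barcodes held 1327 of the 1346 UMIs, and in control 1 of 672 barcodes held 130 of the 150 UMIs.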

How the results depend on the processing

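No paired analysis was possible because each group has 1 library, and for the same reason no replicate could be left out. The share difference of 4.26 points was 10.32 with a granule threshold of 0.2%, 0.77 with 0.8% and 5.29 with cells thinned to 4000 UMIs. It was 5.14 without the limits on Dntt and Pf4, 2.92 by a rule without Mpo and 0.42 from 1% on. The share was higher in STAT5 KO in each of these settings, but not at every limit above 1%. Genes higher in STAT5 KO numbered 40 at 0.2%, 82 with cells chosen after thinning and 372 with a pseudocount of 1 CPM, against 137. The gene counts of cells chosen after thinning were themselves left unthinned. Lower genes numbered 50 at 0.2%, 191 with the pseudocount of 1 CPM, 50 from 1% on and 39 in cells with 10 or more Elane UMIs, against 91. Genes higher than in other KLS cells numbered 16 at 0.2%, 74 at 0.8% and 80 with the pseudocount of 1 CPM, against 38, and lower genes 14, 180 and 511, against 59. The log2 ratio of Stat5a plus Stat5b, -4.24, was -3.53 at 0.8% and -3.41 as a mean over cells.

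These ratios changed sign. The median of the eosinophil, basophil and mast cell list, -0.79, was 1.76 at 0.8%, 0.35 without basophil gene cells, 1.60 from 1% on and 1.07 in cells with 10 or more Elane UMIs. In that order Mcpt8 was at 1.76, 0.35, 1.60 and 1.29, and 0.11 by the rule without Mpo. Prss34 was at 3.95, 0.04 and 3.54 in the first 3 of these. Ms4a2 was at 0.20 at 0.8%, 0.54 from 1% on and 0.47 in the Elane cells. F13a1 was at 0.13 from 1% on and 0.55 in the Elane cells, and Hbb-bt at -0.25 and -0.49. In the Elane cells Csf1r was at 0.14, Ifi27l2a at 0.39 and Socs3 at -0.12. The cause was not tested. The settings from 1% on, by Elane, without Mpo and without basophil gene cells were chosen after seeing the data. Of the other alternatives, 57 values of counts and shares stayed within 1.5 times or within their interval; for single genes and lists 835 stayed within it and 328 moved without a called change of sign. Depth limits genes with few UMIs, such as Cebpe and Socs3.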
